A study of Homo sapiens with 36 samples.

Results

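Small nucleolar RNA host genes are described here in 3 human acute myeloid leukemia (AML) cell lines treated with cytarabine and daunorubicin. The members are the genes whose symbol is SNHG followed by a number, together with GAS5, ZFAS1, EPB41L4A-AS1 and CYTOR, and the rule uses names alone, although it was set with earlier results of these data known. This rule found 32 genes of the 59041 annotated genes in the libraries. HL60 is a promyelocytic or myeloblastic leukemia line that lacks p53. MOLM13 carries an internal tandem duplication of FLT3, and OCIAML3 carries a mutation of NPM1. All lines are labelled WT for genotype, and each is 1 line, so a difference between lines cannot be assigned to any of these features. HL60 and MOLM13 were grown in RPMI and OCIAML3 in alpha-MEM, so line and medium cannot be told apart where OCIAML3 is compared with either. For 24 h, cells received either DMSO (the solvent control), cytarabine at 0.1 µM, daunorubicin at 0.02 µM or both drugs at these doses (the combination). Each of the 12 groups held 3 libraries, which the labels call biological replicates.

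A small nucleolar RNA (snoRNA) guides the chemical modification of ribosomal or spliceosomal RNA. In human cells most snoRNAs lie in introns and are cut out of the spliced intron of a host gene. Box C/D snoRNAs (named SNORD) guide 2′-O-methylation, box H/ACA snoRNAs (SNORA) guide the conversion of uridine to pseudouridine, and the related scaRNAs act in Cajal bodies. The spliced RNA of a non-coding host gene is in many cases exported, engaged by ribosomes and removed by nonsense-mediated decay, so that its level can rise when translation slows. Several hosts, GAS5 among them, begin like ribosomal protein mRNAs with a 5′ terminal oligopyrimidine (TOP) tract, a C followed by a run of pyrimidines.

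A RefSeq or GENCODE snoRNA lay inside 31 of the 32 genes. CYTOR held none, and SNHG27 held one in GENCODE only. By RefSeq, 12 hosts carried SNORD genes only, 10 carried SNORA genes only and 4 carried SCARNA genes only. SNHG14, a host at the imprinted 15q11 region, carried 83 SNORD genes, SNHG1 carried 8 and GAS5 carried 10 with 1 SNORA. GENCODE annotates 144 snoRNA genes inside the hosts, none of them in GAS5, and 11 of these could not be matched to the files. Of the others 4 had a count in any library, with at most 30 counts (SNORA71B in SNHG17, median 11) or 23 counts (SNORA73B in SNHG3), so these libraries hold almost no counts for the intronic snoRNAs that were matched. All values below are those assigned to host transcripts. The 4 snoRNAs with a count are 198 to 275 bases long, and most of the others are shorter. Whether reads of snoRNAs were assigned to host transcripts was not tested. The sequences below show what such a host carries. In the box C/D snoRNAs the capitals mark the C box (TGATGA) and the D box (CTGA), and in the box H/ACA snoRNA the capitals mark the ACA box. SNORD74 (GRCh38 chr1:173867674-173867745, minus strand) and SNORD76 (chr1:173866635-173866715, minus strand) lie in GAS5, and SNORA24 (chr4:118279190-118279320, plus strand) lies in SNHG8. The positions are those of RefSeq, the letters are those of the hg38 genome, and each is written 5′ to 3′ on the strand of its host.
SNORD74: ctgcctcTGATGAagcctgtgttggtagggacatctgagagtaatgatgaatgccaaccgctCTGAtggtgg
SNORD76: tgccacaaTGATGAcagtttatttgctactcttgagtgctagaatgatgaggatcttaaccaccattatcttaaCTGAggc
SNORA24: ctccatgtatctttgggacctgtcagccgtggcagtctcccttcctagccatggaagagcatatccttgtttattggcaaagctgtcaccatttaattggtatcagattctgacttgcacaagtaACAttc

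The first bases of the hosts were compared next, because a TOP tract is what several of them share with ribosomal protein genes. RefSeq start windows (GRCh38.p14) were matched by symbol for 28 of the 32 hosts. A C at the annotated start followed by at least 4 pyrimidines was present in 7 of these 28 (25%), in 4.07% of all 35116 promoters and in 56.5% of the 85 ribosomal protein genes. CACGTG, the E-box bound by MYC and related factors and its own reverse complement, was present within the 300-base windows of 2 hosts (7.14%) and of 7.26% of all promoters. The windows below hold 20 bases before the start and 30 from it, with the pyrimidine tract in capitals. The first 5 hosts have the tract, and SNHG1 and SNHG29 do not have it at the annotated base. SNHG12 is at chr1:28581844-28581893 (minus strand), SNHG4 at chr5:139274081-139274130 (plus strand), SNHG5 at chr6:85678704-85678753 (minus strand), SNHG19 at chr16:2155329-2155378 (minus strand), ZFAS1 at chr20:49278622-49278671 (plus strand), SNHG1 at chr11:62855856-62855905 (minus strand) and SNHG29 at chr17:16438967-16439016 (plus strand). The match depends on the exact annotated base: the GAS5 window (chr1:173869016-173869065) lies wholly outside the GENCODE gene, which ends at 173868882, and holds no tract.
SNHG12: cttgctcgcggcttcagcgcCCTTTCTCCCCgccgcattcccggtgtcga
SNHG4: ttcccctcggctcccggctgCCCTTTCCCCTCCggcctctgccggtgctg
SNHG5: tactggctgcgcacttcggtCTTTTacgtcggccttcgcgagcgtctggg
SNHG19: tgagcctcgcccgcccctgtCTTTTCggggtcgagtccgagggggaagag
ZFAS1: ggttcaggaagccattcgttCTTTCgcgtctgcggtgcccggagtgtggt
SNHG1: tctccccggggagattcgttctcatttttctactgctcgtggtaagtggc
SNHG29: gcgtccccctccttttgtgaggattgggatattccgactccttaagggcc

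The 36 libraries held between 25067734 and 47322144 estimated counts (median 32194478). Of the markers listed for the lines, HOXA9 and MEIS1 were at 0 in all HL60 DMSO libraries and present in MOLM13 and OCIAML3, HOXB4 was present in OCIAML3 DMSO alone, and FLT3 was highest in MOLM13 (363 CPM ± 35.9, counts scaled to the size of the library, SD, n = 3). The granule gene MPO stood at 3559 CPM ± 402 (n = 3) in HL60, whereas the granule genes ELANE and PRTN3, listed for HL60 as well, stood higher in MOLM13, ELANE at 0.15 CPM ± 0.168 in HL60 and 1587 ± 28.4 in MOLM13 (n = 3 each). CD33, SPI1 and PTPRC were present in all lines. In OCIAML3, the libraries labelled cytarabine replicate 3 and combination replicate 3 stood apart from the other libraries of their groups. CDKN1A, the p53 target p21, was at 110, 102 and 378 CPM in the cytarabine replicates 1, 2 and 3, at 1389, 1082 and 84.3 in the combination, and at 105, 90.6 and 78.5 in DMSO. Results in OCIAML3 are therefore given with and without both libraries.

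In DMSO cells the host genes covered a wide range of levels. Per length (TPM, scaled by transcript length and library), SNHG29 was the most abundant with a mean of 1183 over the 9 DMSO libraries, followed by SNHG6 (656), GAS5 (644), SNHG5 (293), SNHG8 (266), SNHG1 (243), ZFAS1 (216) and SNHG7 (127). SNHG29 led in every line, with a TPM of 1103 ± 96.8 in HL60, 1520 ± 9.41 in MOLM13 and 926 ± 30.2 in OCIAML3 (SD, n = 3 each). SNHG6 and GAS5 followed and changed places between lines: SNHG6 had 467 ± 61.7 TPM and GAS5 611 ± 55.5 in HL60, against 988 ± 62.1 and 776 ± 69.1 in MOLM13 (n = 3 each). In OCIAML3 their values were close, at 512 ± 16.7 TPM for SNHG6 and 546 ± 3.32 for GAS5 (n = 3 each). These 8 genes made up between 75.8% of the members' summed TPM, in HL60 DMSO, and 89.6%, in MOLM13 daunorubicin. At the other end, SNHG18 was at 0 in all 36 libraries, SNHG27 had 1 count in a single library, and SNHG32, of which only 1 of 10 annotated transcripts is listed in the files, was at 0 in 35 libraries.

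**Figure D1:**
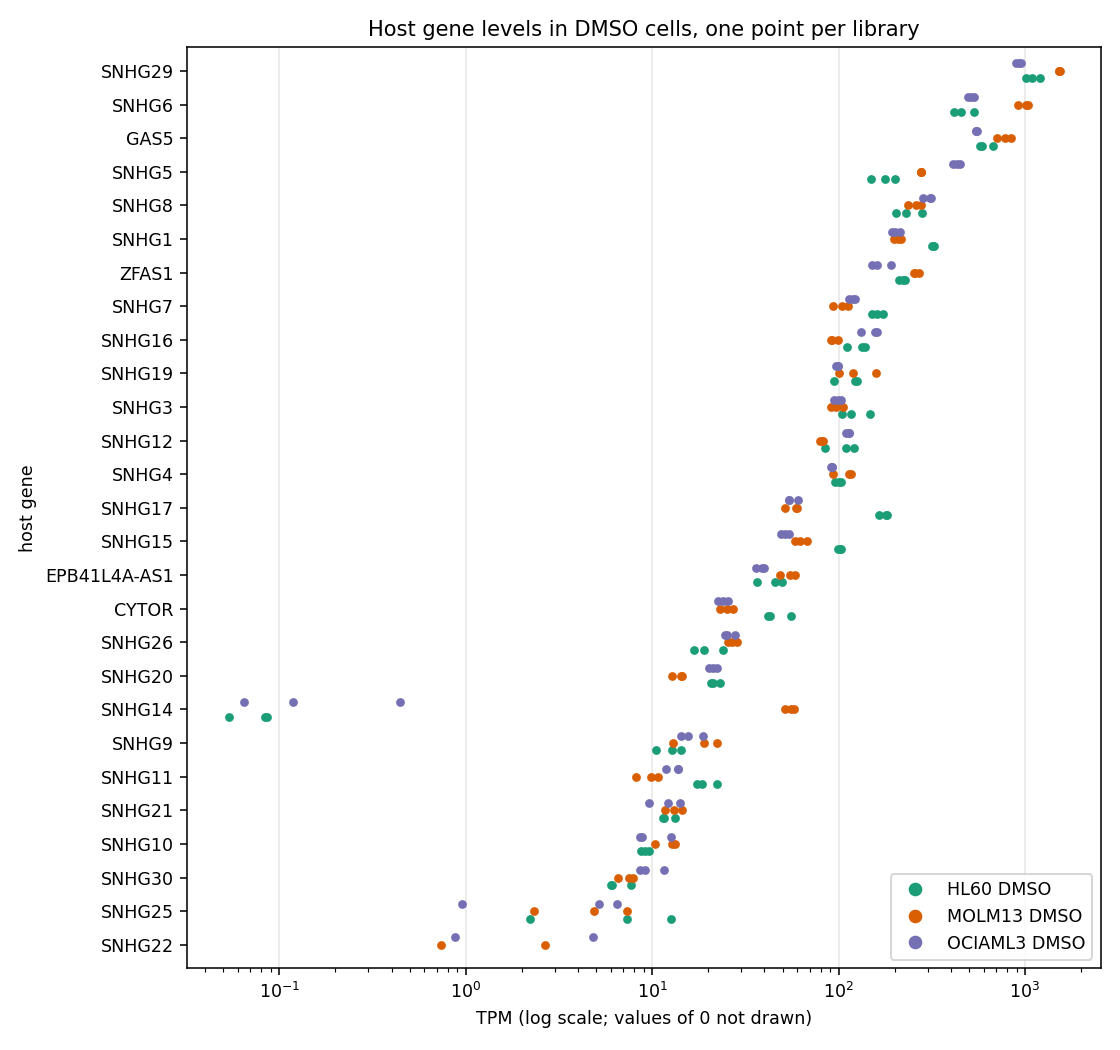
Level of each host gene in DMSO cells in TPM (log axis), with 1 point for each of the 9 DMSO libraries, colored by line; values of 0 are not drawn. SNHG29 lies highest in all lines, and SNHG14 lies far apart in MOLM13 from its level in the other lines.

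Host levels differed between the untreated lines. Of 29 hosts tested over all 36 libraries, 10 were higher and 4 lower in HL60 than in MOLM13 (edgeR quasi-likelihood test, false discovery rate, FDR, under 0.05 over 19053 genes), where 22.7% of all genes were higher and 30.3% lower. Against OCIAML3, 16 hosts were higher and 1 lower in HL60 (28.1% and 34.4% of all genes), and 11 were higher and 2 lower in MOLM13 (28.1% and 26.9%). These tests used counts without scaling by transcript length. The members' summed CPM in DMSO was 3029 ± 197 in HL60, 2945 ± 52.9 in MOLM13 and 2030 ± 21.6 in OCIAML3. Their summed TPM was 4343 ± 282, 5253 ± 131 and 4039 ± 68.4 (SD, n = 3 each), so HL60 and OCIAML3 lay closer in TPM. The sums were not tested. SNHG17, host of SNORA71 genes, stood at 143, 149 and 153 CPM in HL60 DMSO, at 55.1, 51.7 and 56.2 in MOLM13 and at 48.9, 46.7 and 54.5 in OCIAML3. It was thus higher in each HL60 library than in any library of the other lines, with a log2 difference of 1.33 ± 0.16 (SE, FDR 4.64e-08) against MOLM13 and 1.57 ± 0.16 (FDR 1.48e-09) against OCIAML3. CYTOR was also highest in HL60, by a log2 difference of 1.64 ± 0.16 (FDR 9.93e-10) against MOLM13, but has a near-identical copy in the genome, so the division of its reads is uncertain. SNHG6, host of SNORD87, went the other way and was lower in HL60 than in MOLM13 by a log2 difference of -1.28 ± 0.12 (FDR 1.41e-10).

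SNHG14 differed most. It stood at 192, 176 and 204 CPM in MOLM13 DMSO, at 0.267, 0.243 and 0.412 in HL60 and at 0.879, 0.257 and 0.398 in OCIAML3. The log2 difference was -9.36 ± 0.38 (FDR 1.34e-18) for HL60 against MOLM13. SNRPN, the protein-coding gene whose transcription unit SNHG14 extends and with which it shares exon sequence on the same strand, had 2579, 3142 and 2654 counts in MOLM13 DMSO and 0 counts in all 24 HL60 and OCIAML3 libraries. SNRPN was chosen after its values were seen.

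All drug comparisons below set 3 treated against 3 DMSO libraries of the same line, and treatments of a line share its DMSO libraries. A host is said to have risen or fallen when its edgeR FDR was under 0.05 over all genes tested in that line, and is called when its log2 fold change was also over 1 in size. After filtering on low counts, 28 hosts were tested among 15608 genes in HL60, 26 among 16184 in MOLM13 and 27 among 16650 in OCIAML3. In these bulk libraries fewer cells of a kind and less RNA per cell cannot be told apart.

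In HL60, host genes fell after cytarabine and after the combination. With cytarabine 13 hosts fell and 1 rose, where 22% of all genes fell and 23.6% rose. Their median log2 fold change was -0.54, that of all genes 0.01 and that of 2803 long non-coding RNA (lncRNA) genes 0.25, and 6.06% of lncRNA genes fell. The lncRNA genes were not matched to the hosts by level, here or in MOLM13. With daunorubicin 5 hosts fell and none rose, where 9.14% of all genes fell and 12.8% rose. The hosts' median was -0.19 and that of all genes 0.01, and 1.86% of lncRNA genes fell. The fit with replicates as a block, which applies in HL60, gave 9 that fell, adding SNHG17, SNHG26, SNHG15 and SNHG4. With this block 15 hosts fell and 2 rose with cytarabine, and 19 fell and 1 rose with the combination. The other counts and the shares of all genes given here are from the fit without a block. With the combination 16 hosts fell and 1 rose, where 25.3% of all genes fell and 28.1% rose, and the medians were -0.65 for hosts, 0.04 for all genes and 0.34 for lncRNA genes, of which 7.81% fell. Of these, 5 hosts were called lower with cytarabine, none with daunorubicin and 10 with the combination, where 3.12%, 0.538% and 6.29% of all genes were called lower. No host was called higher in these comparisons, where 13.7%, 6.76% and 17% of all genes were. The count of 5 with daunorubicin changed when 1 library was left out. It dropped to 1 without daunorubicin replicate 2, DMSO replicate 1 or DMSO replicate 3. SNHG20 also stopped passing without single cytarabine or combination libraries, which are outside the comparison. Its log2 fold change moved little, from -0.43 to between -0.34 and -0.45 in the fits where it did not pass.

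In MOLM13 the hosts moved in both directions. With cytarabine 16 fell and 1 rose, where 17.8% of all genes fell and 17.1% rose, and the medians were -0.49 for hosts and 0.02 for all genes. With daunorubicin 13 fell and 5 rose (25.7% and 26.9% of all genes), and with the combination 12 fell and 5 rose (26% and 27%). The hosts' medians were -0.20 and -0.14, and those of all genes 0.07 in both. Called lower were 5 hosts after cytarabine, 1 after daunorubicin and 2 after both drugs, where 1.03%, 5.71% and 5.61% of all genes were called lower, and none was called higher (7.11%, 11.3% and 11.8% of all genes). The share of hosts that fell in MOLM13 stood beside 4.74%, 5.08% and 5.35% of lncRNA genes that fell in these comparisons, whose own medians were 0.21, 0.44 and 0.48.

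**Figure D2:**
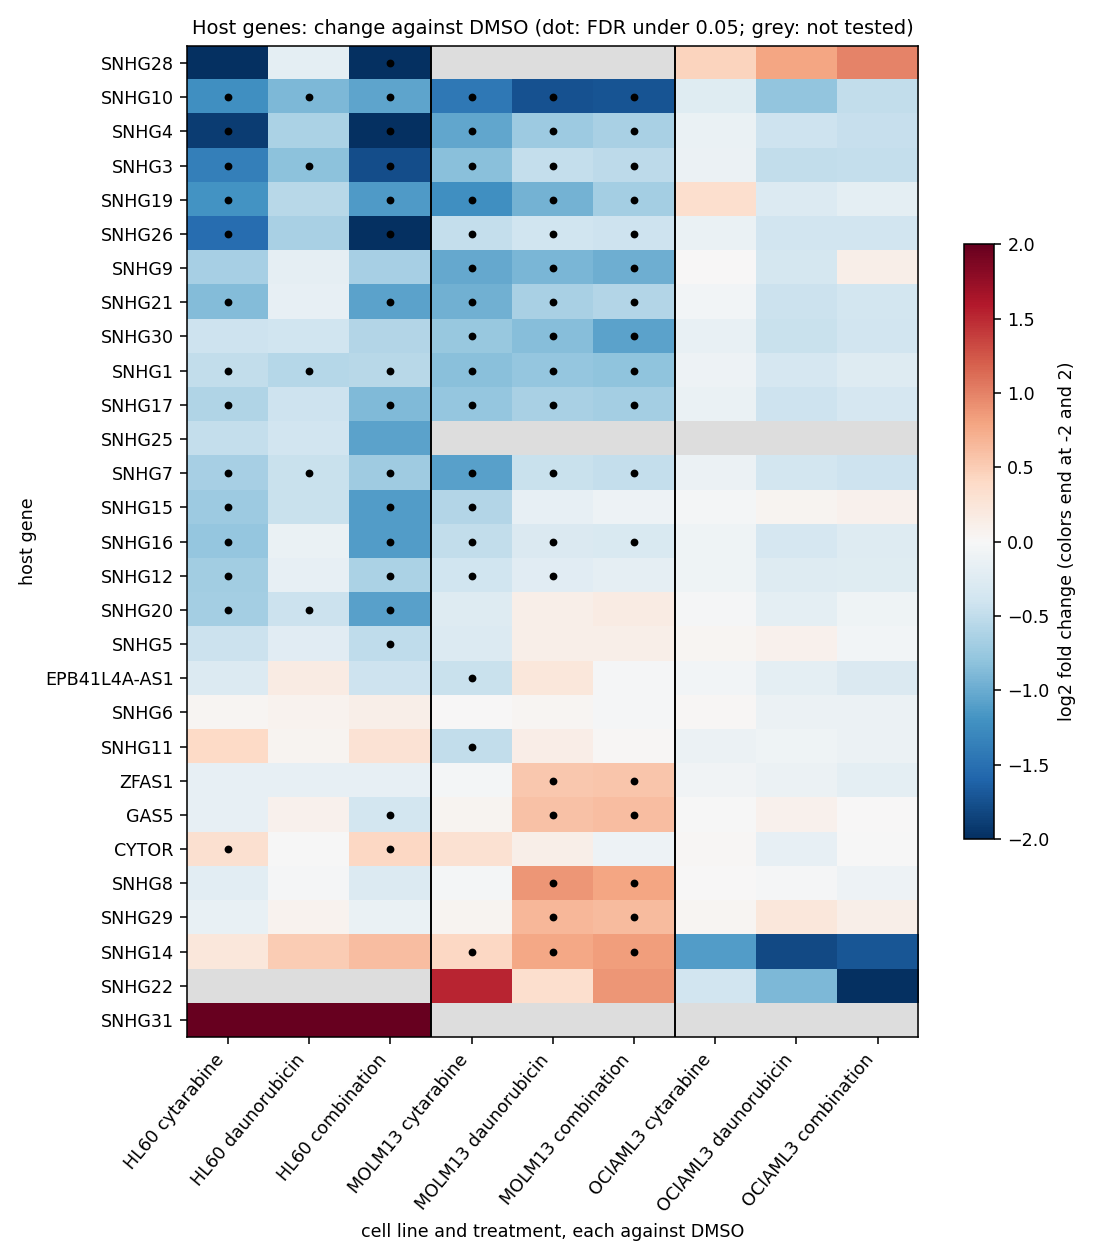
Log2 fold change of each host gene (rows) in each line and treatment against DMSO (columns), with colors ending at -2 and 2; a dot marks an FDR under 0.05 and grey a host that was not tested. HL60 columns are mostly negative with 16 hosts lower after the combination, MOLM13 columns hold 5 higher hosts after daunorubicin and after the combination, and OCIAML3 columns hold no dot.

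SNHG10, SNHG3, SNHG1 and SNHG7 fell in all 6 comparisons of HL60 and MOLM13. With 1 library left out, however, the HL60 daunorubicin value no longer passed in 9 fits for SNHG10, 6 for SNHG1, 3 for SNHG7 and none for SNHG3. SNHG4, SNHG26, SNHG3, SNHG10 and SNHG19 were called in at least 2 of these 6 comparisons, and their values are given first.

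SNHG4 (chr5:139274102-139284899, plus strand), host of SNORA74A and SNORA74D, had the largest log2 fold change of these 5 hosts in HL60 after cytarabine and after the combination. It stood at 119, 114 and 111 CPM in HL60 DMSO, at 31.6, 37.4 and 23.1 with cytarabine, at 83.1, 68.8 and 69.8 with daunorubicin and at 22.3, 10.4 and 15 with the combination. Every treated library lay below every DMSO library, and those of the combination lay lowest. The log2 fold change was -1.90 ± 0.23 (FDR 3.24e-05) with cytarabine and -2.85 ± 0.23 (FDR 1.39e-06) with the combination, whereas that with daunorubicin, -0.63 ± 0.22, missed the threshold (FDR 0.0526) and passed it with replicates as a block (FDR 0.0132). In MOLM13 SNHG4 stood at 117, 92.7 and 110 CPM in DMSO, 52.9, 46.7 and 56.1 with cytarabine, 58.1, 73.2 and 60.8 with daunorubicin and 70, 68 and 65.9 with the combination. There it fell by 1.04 ± 0.11 on the log2 scale with cytarabine (FDR 9.01e-05), by 0.73 ± 0.11 with daunorubicin (FDR 0.000201) and by 0.65 ± 0.11 with the combination (FDR 0.000462). SNHG4 shares exon sequence on the same strand with MATR3, which has 2 gene entries. In HL60 with the combination 1 entry (ENSG00000280987) changed by -2.07 ± 0.22 (FDR 7.94e-06) and the other (ENSG00000015479) by -0.87 ± 0.09 (FDR 5.34e-06), and how the reads divide between SNHG4 and MATR3 was not tested.

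SNHG26 (chr7:22854126-22872952, plus strand), host of SNORD93, followed. It stood at 20.2, 16.5 and 22.5 CPM in HL60 DMSO, at 6.97, 6.97 and 6.55 with cytarabine, at 12.7, 10 and 15.1 with daunorubicin and at 4.68, 2.74 and 5.22 with the combination. All treated libraries lay below the DMSO libraries. The log2 fold change was -1.53 ± 0.23 (FDR 0.000149) with cytarabine and -2.23 ± 0.23 (FDR 6.06e-06) with the combination, and that with daunorubicin, -0.65 ± 0.22, missed the threshold (FDR 0.0505) and passed it with replicates as a block (FDR 0.00541). In MOLM13 its difference was less, from 22.9, 22.1 and 22.4 CPM in DMSO to between 13 and 19 in the treated libraries, with log2 fold changes of -0.48 ± 0.13 (FDR 0.0133) with cytarabine, -0.40 ± 0.13 (FDR 0.0234) with daunorubicin and -0.41 ± 0.13 (FDR 0.0193) with the combination.

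SNHG3 (chr1:28505980-28510892, plus strand), host of SNORA73A and SNORA73B, stood at 233, 248 and 192 CPM in HL60 DMSO, at 92.7, 92.6 and 74.9 with cytarabine, at 124, 141 and 116 with daunorubicin and at 77.8, 52.8 and 66.6 with the combination. No treated library reached the DMSO range. It fell by 1.37 ± 0.15 on the log2 scale with cytarabine (FDR 1.8e-05), by 0.82 ± 0.15 with daunorubicin (FDR 0.00207) and by 1.77 ± 0.15 with the combination (FDR 1.62e-06). The MOLM13 libraries stood at 170, 148 and 153 CPM in DMSO, 88.6, 82.8 and 91.5 with cytarabine, 111, 123 and 103 with daunorubicin and 98.5, 123 and 106 with the combination, again without overlap. Here it fell by 0.84 ± 0.09 with cytarabine (FDR 0.000111), by 0.48 ± 0.09 with daunorubicin (FDR 0.00128) and by 0.53 ± 0.09 with the combination (FDR 0.000699). RCC1, which shares exon sequence with SNHG3 on the same strand, changed by -1.61 ± 0.15 (FDR 3.34e-06) in HL60 with the combination, and how the reads divide between the pair was not tested.

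SNHG10 and SNHG19 are less abundant hosts, of SCARNA13 and SNORD60. SNHG10 stood at 10.1, 7.48 and 9.72 CPM in HL60 DMSO, at 5.31, 2.46 and 3.92 with cytarabine, at 6.89, 3.46 and 4.34 with daunorubicin and at 5.13, 3.47 and 4.59 with the combination. In MOLM13 it stood at 9.17, 9.25 and 9.89 in DMSO, at 3.71, 4.28 and 2.45 with cytarabine, at 2.72, 3.81 and 1.89 with daunorubicin and at 4.84, 1.87 and 1.73 with the combination. DMSO and treated libraries did not overlap in any of these comparisons, and the log2 fold changes lay between -0.90 ± 0.30 (HL60 daunorubicin, FDR 0.0484) and -1.75 ± 0.38 (MOLM13 daunorubicin, FDR 0.00259). SNHG19 stood at 16.1, 17.3 and 12 CPM in HL60 DMSO, at 10.7, 5.78 and 3.45 with cytarabine, at 12.7, 9.54 and 8.53 with daunorubicin and at 7.08, 6.41 and 7.3 with the combination. In MOLM13 it stood at 13.6, 11.7 and 21.2 in DMSO, 7.98, 4.36 and 7.46 with cytarabine, 8.38, 7.61 and 8.13 with daunorubicin and 7.94, 11.1 and 10 with the combination. SNHG19 fell by 1.19 ± 0.31 on the log2 scale with cytarabine in HL60 (FDR 0.0069), by 1.13 ± 0.31 with the combination in HL60 (FDR 0.00758) and by 1.23 ± 0.25 with cytarabine in MOLM13 (FDR 0.00325).

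**Figure D3:**
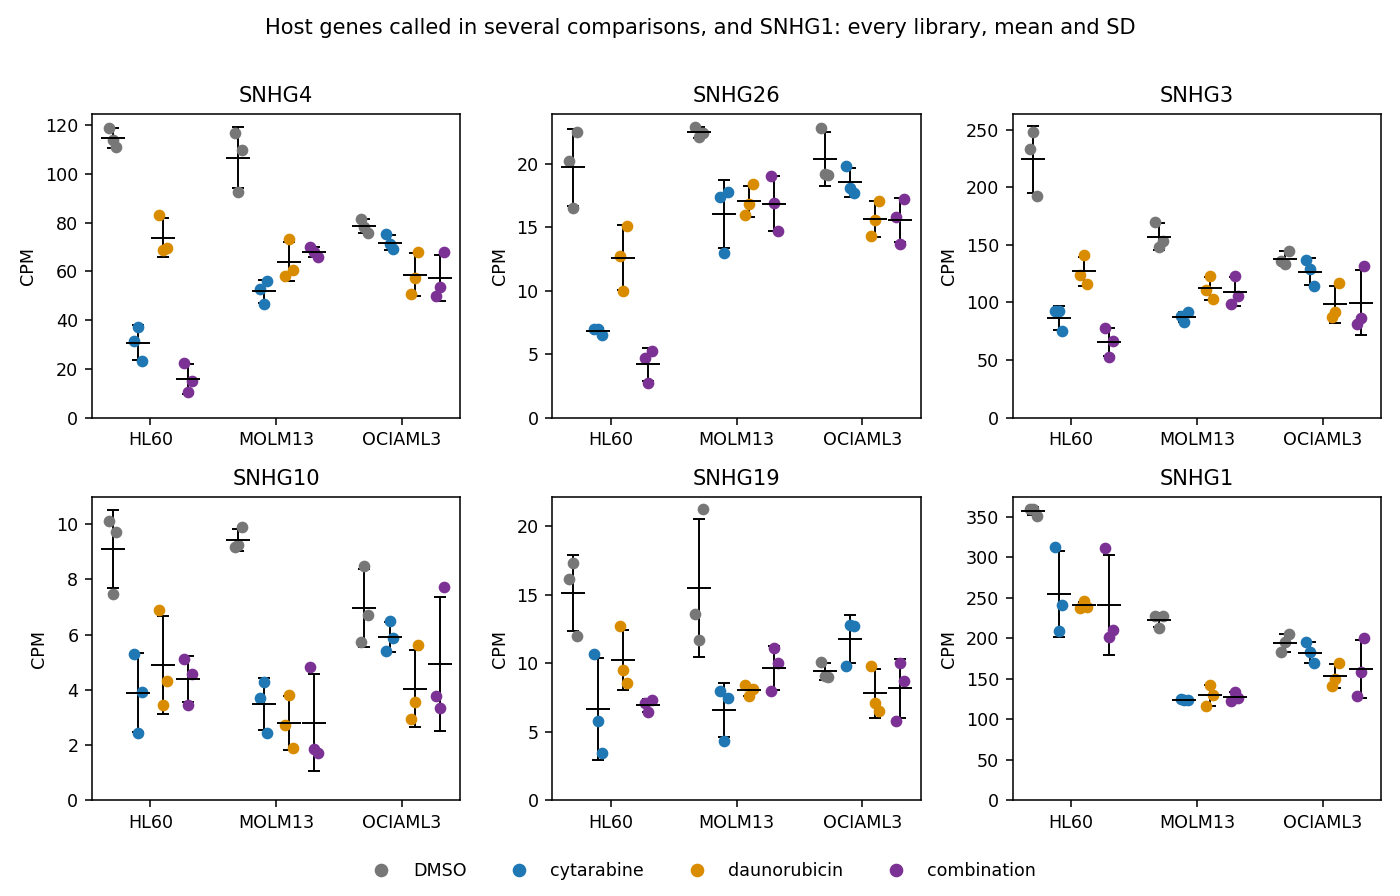
CPM of SNHG4, SNHG26, SNHG3, SNHG10, SNHG19 and SNHG1 in every library (points), with mean and SD (lines), by line and treatment. The SNHG4 points of the HL60 combination, between 10.4 and 22.3, lie lowest of all SNHG4 points, and in OCIAML3 the SNHG3 points of combination replicates 1 and 2 (80.9 and 86.6) lie below those of DMSO (133 to 145) while that of replicate 3 (132) lies next to them.

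Among the abundant hosts, SNHG1 and SNHG7 fell in both lines. SNHG1 (chr11:62851978-62855953, minus strand), host of SNORD22 and SNORD25 to SNORD31, stood at 360, 360 and 351 CPM in HL60 DMSO, at 313, 209 and 241 with cytarabine, at 237, 246 and 239 with daunorubicin and at 312, 202 and 210 with the combination. In MOLM13 SNHG1 stood at 227, 213 and 228 in DMSO, 125, 124 and 124 with cytarabine, 117, 143 and 130 with daunorubicin and 123, 134 and 126 with the combination. All treated libraries of both lines lay below their DMSO libraries, and in HL60 the cytarabine and combination libraries spread more than those of MOLM13. In TPM the HL60 values were 321 ± 2.91 in DMSO, 309 ± 84.8 with cytarabine, where replicate 1 at 401 lay above DMSO, 212 ± 11.6 with daunorubicin and 296 ± 74.3 with the combination (SD, n = 3 each). The log2 fold changes in MOLM13 were -0.84 ± 0.07 (FDR 5.11e-05) with cytarabine, -0.78 ± 0.07 (FDR 1.3e-05) with daunorubicin and -0.81 ± 0.07 (FDR 1.36e-05) with the combination. Those in HL60 were -0.49 ± 0.16 (FDR 0.0255), -0.57 ± 0.16 (FDR 0.0256) and -0.56 ± 0.16 (FDR 0.0101). None of these HL60 values passed with an offset for transcript length. With 1 library left out the cytarabine value no longer passed in 5 fits and the daunorubicin value in 6.

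SNHG7 (chr9:136721366-136728184, minus strand), host of SNORA17A and SNORA17B, stood at 175, 131 and 149 CPM in HL60 DMSO, 104, 96.1 and 86.9 with cytarabine, 120, 98.2 and 117 with daunorubicin and 106, 87.2 and 84.6 with the combination. In MOLM13 SNHG7 stood at 93.2, 82.6 and 89.2 in DMSO, 43.1, 39.9 and 42.3 with cytarabine, 61.5, 78.6 and 54.5 with daunorubicin and 55.4, 72.6 and 62.7 with the combination. It was lowest after cytarabine in MOLM13, where it fell by 1.08 ± 0.13 on the log2 scale (FDR 0.000168), against 0.66 ± 0.13 in HL60 (a log2 fold change of -0.66, FDR 0.00105), and this difference between lines did not pass the test (0.47 ± 0.21, FDR 0.18). SNHG5, host of SNORD50A and SNORD50B, stood at 96.1, 70.6 and 89 CPM in HL60 DMSO and at 75.2, 48.2 and 56.2 with the combination. Its log2 fold change was -0.51 ± 0.17 (FDR 0.0238) although the groups overlapped, and each combination library lay below the DMSO library of the same number. SNHG5 no longer passed without combination replicate 2 or 3 or DMSO replicate 1 or 3 (FDR 0.065 to 0.104). In TPM SNHG5 was 176 ± 26.1 in DMSO and 171 ± 30.7 with the combination (SD, n = 3 each). With cytarabine in HL60 it stood at 75.6, 52.6 and 62 CPM (log2 fold change -0.43 ± 0.17, FDR 0.0586, and FDR 0.000807 with replicates as a block), and with daunorubicin at 75.8, 65.4 and 76.4. In MOLM13 SNHG5 stood at 109, 110 and 104 CPM in DMSO and between 80 and 143 in the treated libraries, and no comparison passed.

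Of the less abundant hosts, SNHG16, SNHG15, SNHG20 and SNHG21 were called lower in HL60 with the combination alone. SNHG16, host of the SNORD1 genes, went from 223, 234 and 266 CPM in HL60 DMSO to 131, 95.5 and 108 with the combination (-1.11 ± 0.12, FDR 6.53e-06). SNHG15, host of SNORA9, went from 119, 111 and 117 CPM to 67.7, 40.3 and 52.2 (-1.12 ± 0.17, FDR 0.000138). SNHG20, host of SCARNA16, went from 28.8, 27.5 and 27.4 CPM to 15.2, 12 and 12.1 (-1.09 ± 0.15, FDR 3.8e-05). The groups did not overlap for any of these hosts, nor for SNHG21, host of SCARNA15 (-1.07 ± 0.24, FDR 0.00193). SNHG28 was called there as well (-2.98 ± 1.04, FDR 0.0274), but on 13, 31 and 12 counts in DMSO and 2, 7 and 0 with the combination. In MOLM13, SNHG9, host of SNORA78, was called lower with cytarabine (-1.03 ± 0.26, FDR 0.0109) and SNHG30, host of SNORD7, with the combination (-1.07 ± 0.21, FDR 0.00136). SNHG17 fell in all comparisons of both lines but HL60 daunorubicin, by between 0.60 ± 0.15 and 0.88 ± 0.15 on the log2 scale in HL60 (log2 fold changes of -0.60 with cytarabine and -0.88 with the combination).

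The hosts that rose in MOLM13 with daunorubicin and also with both drugs were SNHG29, GAS5, SNHG8, ZFAS1 and SNHG14. SNHG29 (chr17:16438767-16480249, plus strand), host of SNORD49A, SNORD49B and SNORD65, stood at 833, 852 and 852 CPM in DMSO, at 890, 926 and 838 with cytarabine, at 1368, 1426 and 1246 with daunorubicin and at 1213, 1441 and 1270 with the combination. The daunorubicin and combination libraries all lay above the DMSO libraries, and those of cytarabine overlapped them. It rose by 0.67 ± 0.07 on the log2 scale with daunorubicin (FDR 2.93e-05) and by 0.63 ± 0.07 with the combination (FDR 4.5e-05). In HL60 it stood at 795, 657 and 645 CPM in DMSO, at 701, 566 and 626 with cytarabine, at 758, 708 and 732 with daunorubicin and at 732, 591 and 590 with the combination, and no comparison passed.

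SNHG8 (chr4:118278703-118285316, plus strand), the host of SNORA24 printed above, stood at 54.7, 56.2 and 59.9 CPM in MOLM13 DMSO, at 58.7, 54.2 and 53.3 with cytarabine, at 105, 114 and 94.9 with daunorubicin and at 89.9, 106 and 99.7 with the combination. Of the hosts that rose in MOLM13 with daunorubicin it had the largest log2 fold change, rising by 0.88 ± 0.08 on the log2 scale with daunorubicin (FDR 1.53e-05) and by 0.79 ± 0.08 with the combination (FDR 2.78e-05). In HL60 its libraries lay between 55.7 and 77 CPM in DMSO and between 45.9 and 67.4 in treated cells, and no comparison passed, although with replicates as a block the combination did (-0.28, FDR 0.0146). ZFAS1 (chr20:49278178-49299600, plus strand), host of SNORD12, SNORD12B and SNORD12C, stood at 111, 115 and 115 CPM in MOLM13 DMSO, at 115, 114 and 102 with cytarabine, at 152, 199 and 144 with daunorubicin and at 148, 203 and 152 with the combination. It rose by 0.54 ± 0.14 with daunorubicin (FDR 0.00596) and by 0.56 ± 0.14 with the combination (FDR 0.00457), and in HL60 lay between 83.5 and 122 CPM in all libraries with no comparison past the threshold. The kit does not mark strand, and ZFAS1, SNHG8 and SNHG29 each overlap an exon of a gene on the other strand (ZNFX1, PRSS12 and LRRC75A among them), so reads of the partners cannot be told apart.

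GAS5 (chr1:173858559-173868882, minus strand), the growth arrest specific host, stood at 291, 340 and 314 CPM in MOLM13 DMSO, at 336, 327 and 317 with cytarabine, at 449, 512 and 447 with daunorubicin and at 446, 538 and 461 with the combination. It rose by 0.58 ± 0.08 on the log2 scale with daunorubicin (FDR 0.000194) and by 0.61 ± 0.08 with the combination (FDR 0.000132), without overlap. In HL60 it stood at 361, 301 and 329 CPM in DMSO, at 345, 265 and 273 with cytarabine, at 366, 347 and 332 with daunorubicin and at 317, 236 and 219 with the combination. The combination value, -0.36 ± 0.14, passed (FDR 0.0455) although the groups overlapped. Each combination library lay below the DMSO library of the same number, and with replicates as a block the value was -0.37 (FDR 0.00169). In the fit without a block the value no longer passed when combination replicate 2 or 3, DMSO replicate 1 or 3 or any daunorubicin library was left out (FDR 0.0502 to 0.174). The value also depended on how transcripts were summed: it was 0.09 (FDR 0.675) with an offset for transcript length and 0.29 (FDR 0.193) without transcripts annotated as retained introns. SNHG14 rose in MOLM13 with all treatments, from 192, 176 and 204 CPM in DMSO to 281, 224 and 254 with cytarabine (0.41 ± 0.09, FDR 0.00476), 337, 327 and 320 with daunorubicin (0.78 ± 0.09, FDR 4.1e-05) and 312, 338 and 372 with the combination (0.84 ± 0.09, FDR 3.07e-05).

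SNHG6, the second most abundant host, passed the test in no HL60 or MOLM13 comparison, with log2 fold changes between -0.02 ± 0.08 (MOLM13 combination) and 0.12 ± 0.14 (HL60 combination). In HL60 it stood at 149, 105 and 123 CPM in DMSO, 148, 115 and 122 with cytarabine, 140, 129 and 127 with daunorubicin and 158, 121 and 130 with the combination. In MOLM13 it stood at 291, 264 and 287 in DMSO and between 257 and 311 in the 9 treated libraries. CYTOR was the single host that rose in HL60 without the replicate block, which added SNHG11 with cytarabine (0.37, FDR 0.0183). CYTOR went from 36.5, 36.4 and 37.6 CPM in DMSO to 46.4, 46.2 and 45.2 with cytarabine (0.32 ± 0.10, FDR 0.016) and 48, 49.2 and 49.1 with the combination (0.41 ± 0.10, FDR 0.00307). The cytarabine value no longer passed without DMSO replicate 2 (FDR 0.0531). In TPM CYTOR differed more, with 46.9 ± 7.55 in DMSO, 108 ± 17.1 with cytarabine and 118 ± 10.5 with the combination (SD, n = 3 each). Summed over the members, HL60 DMSO libraries held 3029 CPM ± 197 and combination libraries 2095 ± 369, whereas the summed TPM was 4343 ± 282 and 4206 ± 532 (SD, n = 3 each). In MOLM13 the sum went from 2945 CPM ± 52.9 in DMSO to 3573 ± 211 with daunorubicin, and from 5253 TPM ± 131 to 6651 ± 382 (n = 3 each). With cytarabine the MOLM13 sum was 2626 CPM ± 72.9 and 5324 TPM ± 189 (n = 3 each). The HL60 combination sum was thus lower in CPM but close to DMSO in TPM, the MOLM13 daunorubicin sum was higher on both scales, and the MOLM13 cytarabine sum was lower in CPM and close to DMSO in TPM. No test was run on these sums.

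**Figure D4:**
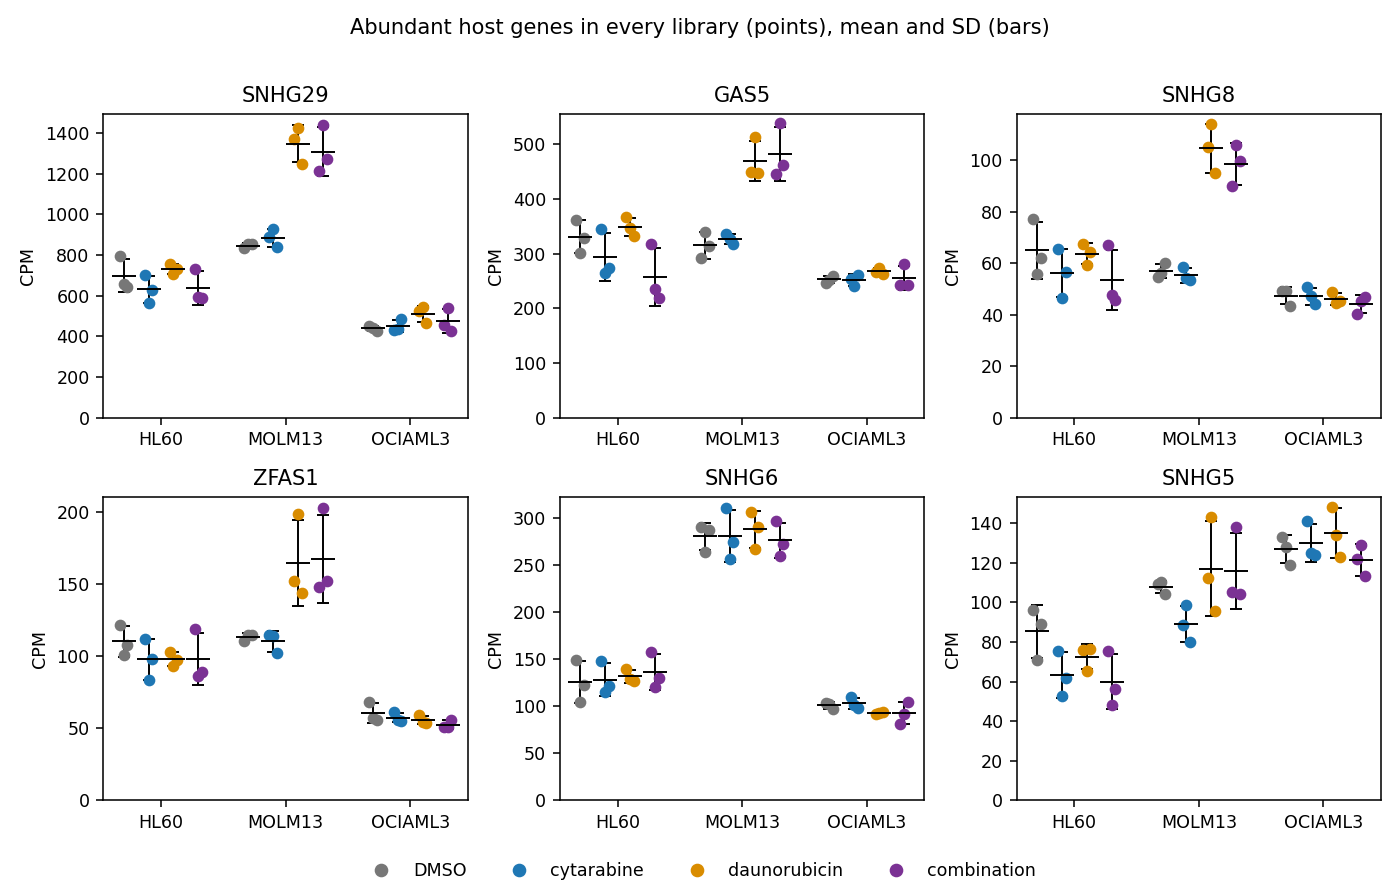
CPM of SNHG29, GAS5, SNHG8, ZFAS1, SNHG6 and SNHG5 in every library (points), with mean and SD (lines), by line and treatment. In MOLM13 the SNHG29 points lie between 1213 and 1441 after daunorubicin and the combination, above the DMSO points at 833 to 852, while the SNHG6 points of treated and DMSO cells overlap in HL60 and MOLM13.

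The difference between lines was tested directly, as the log2 fold change in HL60 minus that in MOLM13 over all 36 libraries. For the combination 10 hosts differed, all with a lower value in HL60, where 10.1% of 19053 genes had a lower and 17.3% a higher value. SNHG4 differed most (-2.12 ± 0.25, FDR 3.49e-07), followed by SNHG26 (-1.73 ± 0.24, FDR 4.16e-06). SNHG29, ZFAS1, GAS5 and SNHG8, which had risen in MOLM13, were among the 10. For daunorubicin these 4 alone differed, again with lower values in HL60 (6.69% of all genes lower and 13.9% higher). For cytarabine SNHG26 and SNHG4 had a lower value in HL60 and SNHG11 a higher one (2.65% of all genes lower and 5.73% higher). SNHG10, SNHG1, SNHG7, SNHG17, SNHG19 and SNHG21, which fell in both lines, passed this test for no treatment, and for SNHG1 with the combination the difference was 0.33 ± 0.20 (FDR 0.231).

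In OCIAML3 no host passed the test with any treatment, nor did any other gene (0% of 16650). The medians over hosts were -0.07 for cytarabine, -0.27 for daunorubicin and -0.24 for both, and 0, 11 and 9 hosts had an unadjusted p under 0.05. DESeq2 gave 3 hosts that fell with daunorubicin. Without the libraries labelled cytarabine replicate 3 and combination replicate 3, no host passed with cytarabine, 9 fell and 1 rose with daunorubicin (16% and 15.3% of all genes), and 11 fell and 1 rose with the combination (21.6% and 20.1%). Then SNHG3 changed by -0.49 ± 0.10 (FDR 0.00605) with daunorubicin and -0.72 ± 0.11 (FDR 0.00111) with the combination, SNHG4 by -0.42 ± 0.09 (FDR 0.00857) and -0.60 ± 0.11 (FDR 0.00183), SNHG10 by -0.79 ± 0.24 (FDR 0.0293) and -0.98 ± 0.27 (FDR 0.0154), and SNHG1 by -0.34 ± 0.09 (FDR 0.019) and -0.44 ± 0.10 (FDR 0.0074). The host that rose was SNHG28, by 0.79 ± 0.26 (FDR 0.0427) and 1.15 ± 0.28 (FDR 0.00899), and with the combination it was the single called host (5.9% of all genes were called higher).

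The libraries behind this difference are seen in single hosts. SNHG4 stood at 81.5, 78.2 and 75.9 CPM in OCIAML3 DMSO, at 75.2, 71.1 and 69.1 with cytarabine, at 50.7, 57.2 and 68 with daunorubicin and at 50, 53.6 and 67.9 with the combination. SNHG3 stood at 136, 133 and 145 CPM in DMSO, 137, 129 and 114 with cytarabine, 87.3, 91.5 and 117 with daunorubicin and 80.9, 86.6 and 132 with the combination. SNHG1 stood at 183, 196 and 205 CPM in DMSO, 195, 183 and 169 with cytarabine, 141, 150 and 170 with daunorubicin and 129, 159 and 200 with the combination. In each of these hosts combination replicate 3 lay nearer to DMSO than its partners, and cytarabine replicate 3 was the lowest of its group. Daunorubicin replicate 3 also lay nearer to DMSO than its partners in each of them, and it was kept in the fit without both libraries. Of the hosts that rose in MOLM13, none passed the test in OCIAML3 with or without both libraries. SNHG29 stood at 452, 441 and 427 CPM in DMSO, 432, 438 and 485 with cytarabine, 523, 542 and 467 with daunorubicin and 457, 540 and 428 with the combination, so that all daunorubicin libraries lay above DMSO (FDR 0.15, and 0.0521 without both libraries). SNHG14 had 27, 11 and 12 counts in DMSO and between 2 and 11 in the treated libraries. GAS5 lay between 240 and 281 CPM, SNHG8 between 40.2 and 50.6 and ZFAS1 between 50.9 and 68.5 in all OCIAML3 libraries. SNHG7 stood at 83.8, 91.4 and 87.6 CPM in OCIAML3 DMSO, 81.6, 89.8 and 71.2 with cytarabine, 60, 66.6 and 77.1 with daunorubicin and 51.9, 58.4 and 85.8 with the combination. With daunorubicin and with the combination replicate 3 was again nearest to DMSO. SNHG26 went from 22.8, 19.2 and 19.1 CPM in DMSO to 14.3, 15.6 and 17.1 with daunorubicin and 15.8, 13.7 and 17.2 with the combination, and SNHG10 from 5.73, 8.49 and 6.7 to 2.95, 3.57 and 5.63 and to 3.77, 3.34 and 7.73. SNHG5 lay between 113 and 148 CPM, SNHG6 between 81.7 and 110 and SNHG19 between 5.82 and 12.8 over the 12 OCIAML3 libraries.

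The retained-intron transcripts of GAS5 were looked at separately, a choice made after its values were seen. GAS5 has 26 annotated retained-intron transcripts, and whether the introns they keep hold snoRNAs was not checked. In HL60 they took 46.4%, 49.8% and 50.4% of GAS5 counts in DMSO, 17.7%, 24.2% and 26.3% with cytarabine, 36.1%, 35.8% and 45.7% with daunorubicin and 19.4%, 14.9% and 26.4% with the combination. In MOLM13 the shares were 38.5%, 31.9% and 36.8% in DMSO, 23.4%, 19.1% and 24.5% with cytarabine, 20.3%, 17.2% and 24.2% with daunorubicin and 19.7%, 15.4% and 18.2% with the combination. Every treated library of both lines lay below its DMSO libraries. In OCIAML3 the shares were 49.6%, 55.6% and 55.4% in DMSO and 52.5%, 50.4% and 52.1% with cytarabine. They were 43.1%, 45.4% and 53.9% with daunorubicin and 45.2%, 47.2% and 56.5% with the combination. Replicates 1 and 2 of daunorubicin and of the combination thus lay below all DMSO libraries, and replicate 3 of each did not.

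In counts, the retained-intron transcripts of GAS5 went from 161 CPM ± 9.51 in HL60 DMSO to 65.7 ± 5.51 with cytarabine and 51.4 ± 14.2 with the combination, while its other transcripts went from 169 ± 21.6 to 229 ± 48 and 206 ± 47.7 (SD, n = 3 each). In MOLM13 the retained-intron transcripts went from 112 CPM ± 3.47 in DMSO to 95.9 ± 10.7 with daunorubicin and 84.9 ± 2.73 with the combination, and the others from 203 ± 26.3 to 374 ± 44.5 and 397 ± 51.4 (n = 3 each). The log2 ratio of both kinds was tested with limma over all genes with enough counts of each. For GAS5 it changed by -1.72 ± 0.31 (FDR 0.042) with cytarabine and -1.95 ± 0.31 (FDR 0.0156) with the combination in HL60, and by -1.11 ± 0.22 (FDR 0.0167) with daunorubicin and -1.37 ± 0.22 (FDR 0.00733) with the combination in MOLM13. Over all 12 OCIAML3 libraries it did not pass with daunorubicin (-0.35 ± 0.22, FDR 0.688) or with the combination (-0.22 ± 0.22, FDR 0.788). The HL60 cytarabine ratio no longer passed in 10 of the 12 fits that left out 1 library, with values from -1.50 to -1.87 in them. The HL60 combination ratio no longer passed in 4 such fits (FDR 0.0534 to 0.0605) and the MOLM13 daunorubicin ratio in 2 (FDR 0.0506 and 0.0572). In HL60 the ratio fell for 0.328% of 4883 genes and rose for 0.184% with cytarabine, and for 1.17% and 1.09% with the combination. In MOLM13 it rose for 13.7% of 4989 genes with daunorubicin and 15.8% with the combination, and fell for 0.902% and 0.962%.

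The ratio changed in few other hosts. SNHG6 had a lower ratio in MOLM13 with daunorubicin (-0.81 ± 0.15, FDR 0.0136) and with the combination (-0.72 ± 0.15, FDR 0.0146), where its retained-intron share was 7.7% ± 0.391 in DMSO, 4.55% ± 0.458 and 4.83% ± 0.431 (SD, n = 3 each). In HL60 with the combination it was lower for SNHG12 (-1.13 ± 0.23, FDR 0.0372) and SNHG29 (-1.08 ± 0.22, FDR 0.0367) and higher for SNHG3 (1.14 ± 0.25, FDR 0.0433). These HL60 results changed when 1 library was left out, also where that library was outside the comparison. No host had a higher ratio in 11 of 12 such fits. The 3 hosts with a lower ratio, GAS5 included, became 0 to 2. SNHG12 took 83.2%, 82.7% and 83% of its counts from such transcripts in HL60 DMSO and 66.9%, 72.7% and 66.9% with the combination. Its fall in HL60, from 88.9, 63.5 and 92 CPM to 59.6, 43 and 48.6 with cytarabine (-0.69 ± 0.24, FDR 0.0312), was not seen without those transcripts (0.13, FDR 0.758). SNHG3 took 41.9%, 51.5% and 47% in DMSO and 64.1%, 72.9% and 60.4% with the combination.

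**Figure D5:**
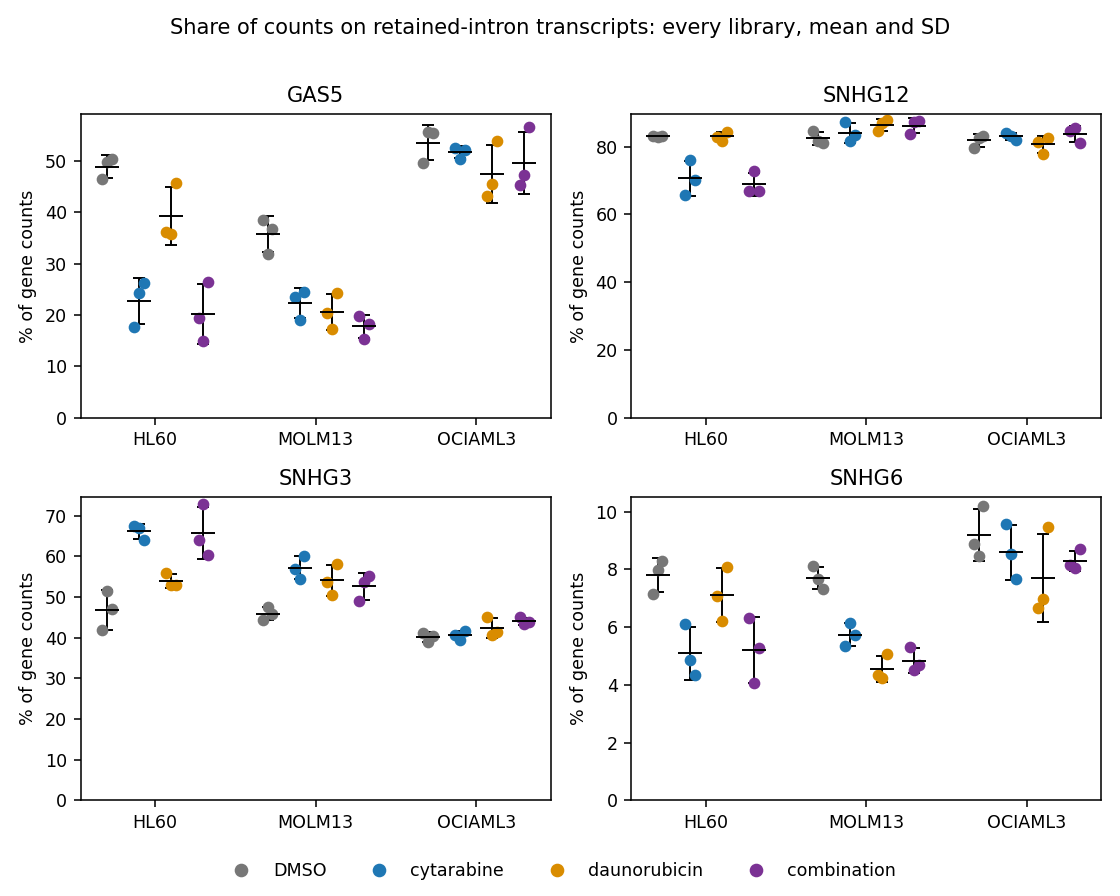
Share of gene counts on transcripts annotated as retained introns (percent) for GAS5, SNHG12, SNHG3 and SNHG6 in every library (points), with mean and SD (lines), by line and treatment. The GAS5 share falls from between 46.4 and 50.4 in HL60 DMSO to between 14.9 and 26.4 with the combination, and the SNHG3 share moves upward in HL60.

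The genes that act with these hosts were described by fixed lists. Of the 8 snoRNP core proteins listed, which bind box C/D RNAs (NOP56, NOP58 and SNU13 among them) or box H/ACA RNAs (DKC1, NHP2, NOP10, GAR1), 7 were tested, and all 7 fell in 5 of the 6 comparisons of HL60 and MOLM13, with medians of -1.01 with cytarabine and -1.24 with the combination in HL60, and -0.85, -0.95 and -0.97 with cytarabine, daunorubicin and both in MOLM13. In HL60 with daunorubicin 3 of 7 fell (median -0.37). In HL60 with the combination DKC1, the pseudouridine synthase, changed by -1.56 ± 0.11 (FDR 6.41e-07), NOP56 by -1.29 ± 0.12 (FDR 3.1e-06), GAR1 by -1.28 ± 0.17 (FDR 3.44e-05) and NOP58 by -1.24 ± 0.14 (FDR 9.51e-06). In MOLM13 with daunorubicin NOP56 changed by -1.22 ± 0.07 (FDR 4.5e-06) and NOP58 by -1.13 ± 0.09 (FDR 9.16e-06). In OCIAML3 without both libraries named above, 6 of 7 fell with daunorubicin and 7 of 7 with the combination.

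Of the 13 snoRNP assembly factors, 9, 5 and 10 fell in HL60 with cytarabine, daunorubicin and the combination, and 9, 11 and 11 in MOLM13, with none higher. NOLC1, the nucleolar chaperone of snoRNPs, changed by -1.43 ± 0.15 (FDR 7.9e-06) and NUFIP1 by -1.34 ± 0.14 (FDR 5.64e-06) in HL60 with the combination, and TCOF1 by -1.26 ± 0.13 (FDR 1.87e-05) in MOLM13 with daunorubicin. Of 20 nonsense-mediated decay factors, 13, 6 and 12 fell in HL60 and 12, 13 and 14 in MOLM13, in the same order of treatments, with 1, 0 and 1 higher in HL60 and 2, 2 and 1 in MOLM13. SMG1, the kinase of the pathway, changed by -0.98 ± 0.19 (FDR 0.000797) in HL60 with the combination. UPF1, the helicase that SMG1 phosphorylates, changed by -0.81 ± 0.15 there (FDR 0.000565). In MOLM13 with daunorubicin MAGOHB, of the exon junction complex, changed by -1.50 ± 0.23 (FDR 0.000229).

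Protein-coding genes that host snoRNAs were counted in 2 groups, and no test compared the groups. Of 25 tested hosts that encode ribosomal proteins, 22 rose in MOLM13 with daunorubicin (median 0.29) and 20 with the combination (median 0.28), with none lower, RPL13A rising by 0.60 ± 0.05 on the log2 scale (FDR 9.77e-06) with daunorubicin. In MOLM13 with cytarabine 5 fell. In HL60 6 fell with cytarabine and 8 with the combination, and with daunorubicin none fell. Of 17 other protein-coding hosts, 14, 9 and 15 fell in HL60 and 14, 13 and 13 in MOLM13 with cytarabine, daunorubicin and the combination, with 1 higher in HL60 with the combination and 4 higher in MOLM13 with daunorubicin and with both drugs. In HL60 with the combination NCL (nucleolin) changed by -2.01 ± 0.18 (FDR 1.98e-06) and WDR43 by -2.31 ± 0.16 (FDR 5.43e-07). These lists were read against the shares of all genes given above, with no test of a list.

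Markers of 12 genes from other cell types were read as a check. Their summed level was 0.725 to 1.36 CPM in HL60 DMSO, 5.09 to 6.94 with cytarabine, 1.65 to 4.79 with daunorubicin and 5.92 to 7.85 with the combination. Of 4 tested in HL60, 4, 3 and 4 were higher in these comparisons. In MOLM13 the sum was 78.1 to 146 CPM in DMSO and 162 to 209 in treated libraries, and in OCIAML3 58.1 to 94.6 in DMSO and up to 300 in treated libraries, in both lines mostly PECAM1. ALB, EPCAM, HBB, MS4A1 and HBA1 were each at 0 in at least 29 of 36 libraries and at most 0.382 CPM in the others.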

How the data were processed

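Total RNA of 36 libraries was sequenced. After quality control with FastQC 0.11.9, the authors ran Salmon 1.8.0 on an Ensembl transcriptome (GRCh38). Estimated counts of each transcript, with no normalization, were deposited. The TPM values that the authors deposited are scaled by effective transcript length. They were used here to compare levels between genes and, for some hosts and for the sums, between lines and treatments. All tests used counts. The Ensembl release is not given in the sources used here. The libraries are unstranded and paired-end per the labels.

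Transcript identifiers tied 235378 of the 252199 transcripts to 59041 genes in GENCODE release 44. The other 16821, which held 3.99 to 4.52% of counts, were left out. Counts were summed per gene, rounded and filtered with filterByExpr. Its minimum count was set to 10 and its minimum total count to 15, which does not ask for 10 counts in every library. Counts were then normalized by TMM and fitted per line with glmQLFit and glmQLFTest (edgeR 4.0.16, R 4.3.3) on 12 libraries without a block. The authors used edgeR 3.38.1 on gene sums. CPM values were scaled by TMM library sizes. Each standard error was obtained by dividing the absolute log2 fold change by the root of its F statistic. Lines were compared over all 36 libraries. The retained-intron ratio was log2 of the counts on such transcripts over the others, each plus 0.5, for genes with a mean of at least 10 of each, tested with limma 3.58.1. P-values were adjusted by Benjamini-Hochberg over all genes. The fits were tested on simulated data with known fold changes. Replicates were checked for duplicated libraries, and none were found. P-values measure the spread between libraries labelled as biological replicates.

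In HL60 replicate numbers paired the libraries by the data: the deviations of same-numbered libraries from their group means correlated at 0.105 to 0.382 in every pair of groups. In MOLM13 and OCIAML3 they did not in every pair.

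Members and gene lists were chosen with earlier results of these data known. Values in every library, or their range over libraries, were given for the 8 hosts with the highest mean TPM in DMSO and for hosts called in at least 2 comparisons of HL60 and MOLM13, and up to 4 genes of each list were named by largest fold change. Alternatives were DESeq2 1.42.0, the newer quasi-likelihood method, RLE scaling, no filter, at least 1 CPM in 3 libraries, a transcript length offset, sums without retained-intron transcripts, all 36 libraries in 1 fit, a replicate block, leaving out each library, and OCIAML3 without 2 libraries. Gene sums used pandas 2.3.3 and numpy 2.4.6 in Python 3.11.15, and plots used matplotlib 3.10.9.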

Additional observations from a re-analysis of the deposited data

Results flagged for a closer look

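These results were flagged because the effect of a treatment differed between HL60 and MOLM13 by the test of the difference itself (edgeR, FDR under 0.05 over 19053 genes). Each value is the log2 fold change in HL60 minus that in MOLM13. With cytarabine 3 hosts differed: SNHG11 by 0.95, SNHG26 by -0.99 and SNHG4 by -0.82. With daunorubicin 4 differed: SNHG29 by -0.55, ZFAS1 by -0.65, GAS5 by -0.44 and SNHG8 by -0.85. With the combination 10 differed: SNHG16 by -0.73, SNHG29 by -0.67, ZFAS1 by -0.64, SNHG26 by -1.73, SNHG15 by -0.93, GAS5 by -0.88, SNHG20 by -1.16, SNHG3 by -1.16, SNHG8 by -0.98 and SNHG4 by -2.12. Of all genes, 5.73%, 13.9% and 17.3% had a higher value in HL60 and 2.65%, 6.69% and 10.1% a lower one for these treatments. SNHG11 stood at 22, 17.1 and 19.8 CPM in HL60 DMSO and 34.3, 20.8 and 22.6 with cytarabine, against 9.31, 9.48 and 7.63 and then 6.14, 6.62 and 5.95 in MOLM13. HL60 and MOLM13 were grown in the same medium.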

How the results depend on the processing

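Of the 88 times a host passed the test in a comparison, 61 passed under every alternative and with each library left out. Where a count or direction moved, the cause was not tested, except where the alternative by its construction drops transcripts or libraries. Without retained-intron transcripts SNHG12 turned from lower to 0.13 (HL60 cytarabine) and 0.28 (HL60 combination), GAS5 to 0.29 (HL60 combination) and SNHG11 to -0.76 (MOLM13 combination). With the length offset GAS5 turned to 0.09 (HL60 combination) and EPB41L4A-AS1 to 0.37 (MOLM13 combination). With no low-count filter 2 hosts rose with HL60 cytarabine, 1 rose, 8 fell and 1 was called with HL60 daunorubicin, and 3 rose with the HL60 combination. For HL60 daunorubicin DESeq2 gave 8 that fell, the length offset 2 with 1 called, and sums without retained introns 3 with 1 called. In MOLM13 cytarabine 0 rose in the fit of all 36 libraries and 2 without retained introns, and the length offset called 2 with MOLM13 daunorubicin. In OCIAML3 DESeq2 gave 3 that fell with daunorubicin. Without both OCIAML3 libraries 9 fell and 1 rose with daunorubicin, and 11 fell, 1 rose and 1 was called with the combination. The ratio with at least 50 counts of each kind was higher for 1 host and lower for 3 with HL60 cytarabine, lower for 1 with MOLM13 cytarabine and higher for 2 with MOLM13 daunorubicin.

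With a replicate block 2 hosts rose with HL60 cytarabine (SNHG11 added) and 9 fell with HL60 daunorubicin. In single HL60 hosts it also added SNHG5 and SNHG28 with cytarabine and EPB41L4A-AS1, SNHG30 and SNHG8 with the combination. The block moved no other count of hosts in HL60 by over 1.5 times, and none in MOLM13 or OCIAML3.

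With each library left out in turn, the hosts that rose, fell and were called numbered 0 to 2, 11 to 15 and 4 to 7 with HL60 cytarabine, 0 to 1, 1 to 7 and 0 to 1 with HL60 daunorubicin, 1 to 2, 12 to 18 and 8 to 11 with the HL60 combination, 1 to 1, 14 to 16 and 3 to 5 with MOLM13 cytarabine, 5 to 6, 9 to 13 and 1 to 3 with MOLM13 daunorubicin, and 5 to 5, 9 to 13 and 1 to 3 with the MOLM13 combination. In OCIAML3 they were 0 with cytarabine, 0 to 1, 0 to 8 and 0 with daunorubicin, and 0 to 2, 0 to 11 and 0 to 1 with the combination, where every count above 0 came without combination replicate 3. Interactions numbered 1 to 3 with cytarabine, 2 to 5 with daunorubicin and 10 to 12 with the combination. Hosts with a lower ratio numbered 0 to 1 with HL60 cytarabine, 0 to 2 with the HL60 combination, 1 to 2 with MOLM13 daunorubicin and 1 to 2 with the MOLM13 combination, and those with a higher ratio 0 to 1 with the HL60 combination. The HL60 daunorubicin count that fell was 3 without combination replicate 3 or daunorubicin replicate 3, 2 without DMSO replicate 2, and 1 without daunorubicin replicate 2 or DMSO replicates 1 or 3. In MOLM13, 3 hosts were called with cytarabine without DMSO replicate 1, 3 with daunorubicin without DMSO replicate 2 and 2 without DMSO replicate 1 or daunorubicin replicates 1 or 2, and 1 with the combination without combination replicates 2 or 3. SNHG18, SNHG27 and SNHG32 had too few counts for a test, SNHG32 with 1 of its 10 transcripts in the files.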
